A study of Mus musculus with 8 samples.

Results

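The Th1 axis genes described here are the 8 genes *Ifng*, *Tbx21*, *Cxcr3*, *Il12rb1*, *Il12rb2*, *Hopx*, *Bhlhe40* and *Txk*, chosen by symbol from the 12417 entries of the expression table. Each stood on 1 line, was above 0 in every library and passed the filter on low values, so that all 8 were tested among 10238 genes. The study asked how IL-33, an alarmin sensed through its receptor ST2, shapes donor CD4+ T cells after allogeneic hematopoietic stem cell transplantation, and RNA-Seq of sorted cells was used to compare cells with and without ST2. The ST2fl/fl cells were CD45.2+ cells of B6 mice that carried *St2*fl/fl, a *CD4-Cre* transgene and the *R26-LSL-YFP* reporter, and the ST2WT cells were CD45.1+ cells of B6 *St2*+/+ mice. Both were transferred together, with T cell-depleted B6 WT marrow, into lethally irradiated BALB/c mice, and splenic donor CD4+ T cells were sorted on d5. The mice were 6 to 10 weeks old when the study's experiments began. Each of 4 recipients gave 1 ST2fl/fl and 1 ST2WT library, 8 in all, with libraries of the same number taken to share a recipient. *CD4-Cre* acts in all T cells that pass through a CD4+ stage, and the sort of ST2fl/fl cells also required YFP. Cre, YFP and the CD45 allele differed along with ST2, so their parts cannot be told apart.

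CD4+ T cells become Th1 cells when T cell receptor and IL-12 signals induce Tbet, the T-box factor encoded by *Tbx21*. Tbet opens and binds *Ifng*, which encodes the cytokine IFN-γ, and *Cxcr3*, which encodes the chemokine receptor that guides Th1 cells into inflamed tissue. The IL-12 receptor pairs a constant chain (*Il12rb1*, shared with the IL-23 receptor) with a signaling chain that Th1 cells keep (*Il12rb2*). *Hopx* encodes a small homeodomain protein without DNA binding that accumulates in effector and memory Th1 cells. *Bhlhe40* encodes a basic helix-loop-helix repressor that favors IFN-γ over IL-10, and *Txk* a Tec family kinase of T cells. In graft-versus-host disease, Th1 cells are a main type of alloreactive donor CD4+ T cell.

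The promoters are shown because 3 of these genes carry the same T-box half-site, the kind of short element that Tbet recognizes. In the RefSeq promoters of GRCm38.p6, 6 of the 8 genes had an entry, and *Il12rb1* and *Bhlhe40* had none. The 250 bases before each start were searched on both strands for the T-box half-site TCACAC, for the STAT element TTCNNNGAA and for the E-box CACGTG. Of 32851 promoters, 12.3% held the T-box half-site, 7.02% the STAT element and 6.02% the E-box. The promoters below are *Ifng* (chr10:118440796-118441045, plus strand), *Cxcr3* (chrX:101734148-101734397, minus strand), *Il12rb2* (chr6:67376189-67376438, minus strand) and the promoter of *Txk* farther upstream (chr5:72752778-72753027, minus strand), each 5′ to 3′ with matches in capitals.

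*Ifng*: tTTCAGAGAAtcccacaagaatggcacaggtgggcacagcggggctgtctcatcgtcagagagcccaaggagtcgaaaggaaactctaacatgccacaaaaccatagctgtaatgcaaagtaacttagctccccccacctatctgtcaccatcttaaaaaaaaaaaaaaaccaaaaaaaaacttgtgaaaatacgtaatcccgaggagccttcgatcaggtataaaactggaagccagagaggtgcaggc
*Cxcr3*: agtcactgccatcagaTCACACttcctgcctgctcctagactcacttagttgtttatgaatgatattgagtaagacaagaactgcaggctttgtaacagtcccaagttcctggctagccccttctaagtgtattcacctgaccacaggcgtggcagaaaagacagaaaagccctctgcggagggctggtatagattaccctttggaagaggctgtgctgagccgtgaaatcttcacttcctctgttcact
*Il12rb2*: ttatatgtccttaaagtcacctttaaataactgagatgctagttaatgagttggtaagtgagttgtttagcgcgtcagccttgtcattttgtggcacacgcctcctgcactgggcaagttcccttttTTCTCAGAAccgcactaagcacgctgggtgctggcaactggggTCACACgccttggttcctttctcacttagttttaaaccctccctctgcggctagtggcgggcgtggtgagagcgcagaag
*Txk*: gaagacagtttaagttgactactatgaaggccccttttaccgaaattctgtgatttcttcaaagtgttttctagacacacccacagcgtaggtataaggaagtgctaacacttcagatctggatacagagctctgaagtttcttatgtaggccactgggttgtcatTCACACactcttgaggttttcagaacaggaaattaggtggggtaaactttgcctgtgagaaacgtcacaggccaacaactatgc

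The T-box half-site began at -234 in *Cxcr3*, -80 in *Il12rb2* and -84 in *Txk*, counted from the start of transcription. A STAT element began at -249 in *Ifng* and at -123 in *Il12rb2*, the only one of these promoters with both elements. No match overlapped another. An E-box, the element that BHLHE40 recognizes, began at -86 in 1 of the 2 promoters of *Hopx*. *Tbx21* and the other promoters of *Txk* and *Hopx* held none of the 3 motifs. *Cxcr3*, *Il12rb2* and *Txk*, which share the half-site, did not share a sign in the comparison of the genotypes.

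Levels are TPM, the authors' estimate of each gene's share of a library's transcripts after division by gene length, so that genes can be ranked against each other. *Hopx* was the most abundant of the 8, with a mean of 328 TPM over the 8 libraries, above 96.2% of all entries. *Ifng* (151 TPM) and *Cxcr3* (149.8 TPM) followed, and their libraries overlapped widely. *Bhlhe40* stood at 102 TPM. *Tbx21* stood at 22.1 TPM, while *Txk* and *Il12rb2* shared 15.0 TPM and could not be ordered beyond their spread. *Il12rb1* was the lowest at 7.83 TPM, near the middle of the table with 51.8% of entries below it. The transcript of the master factor was less abundant than those of the cytokine and the chemokine receptor in every library.

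*Ifng* lies on chromosome 10 of GRCm38 from 118441046 to 118445892. It had 101, 131, 147 and 81.0 TPM in the ST2fl/fl libraries of recipients 1, 2, 3 and 4, against 102, 337, 196 and 114 TPM in the ST2WT libraries of the same recipients. The ST2fl/fl value was the lower of the pair in all 4 recipients, but by almost nothing in recipient 1, and the groups overlapped. The ratio of TPM + 1, ST2fl/fl over ST2WT, was 0.986 in recipient 1, 0.390 in recipient 2, 0.753 in recipient 3 and 0.714 in recipient 4. The mean was 115 ± 29.7 TPM in ST2fl/fl cells and 187 ± 108 TPM in ST2WT cells (SD, n = 4 each), a difference within the spread of the ST2WT libraries. Its log2 fold change was -0.57 (SE 0.33, 95% interval -1.31 to 0.17), with an adjusted p of 0.455 from limma and a two-sided exact permutation p of 0.257. With the recipient as a block, the SE was 0.19, the unadjusted p from limma was 0.0163, against 0.118 without the block, and the adjusted p was 0.161. *Ifng* was the most variable of the 8 genes within a genotype. Its SD within genotypes on the log2 scale was 0.62, larger than that of 98.8% of all genes tested and of 99.8% of 964 genes with a mean within a factor of 2 of its own.

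*Tbx21* lies on chromosome 11 from 97098071 to 97115331, and had 19.2, 17.0, 18.5 and 21.7 TPM in the ST2fl/fl libraries, against 20.4, 37.3, 18.5 and 24.0 TPM in the ST2WT libraries. Only the ST2WT library of recipient 2 stood clear of the others, and in recipient 3 the genotypes hardly differed. The ratio of TPM + 1 was 0.471 in recipient 2 and 0.911 to 0.998 in the others. With 19.1 ± 1.96 TPM in ST2fl/fl cells and 25.1 ± 8.46 TPM in ST2WT cells (SD, n = 4 each), the difference did not pass the test (log2 fold change -0.33, SE 0.19, 95% interval -0.75 to 0.09, adjusted p = 0.447 from limma, exact permutation p = 0.171).

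*Cxcr3* lies on chromosome X from 101731535 to 101734269. The ST2fl/fl libraries held 128, 124, 148 and 129 TPM, against 156, 195, 171 and 147 TPM in the ST2WT libraries. Its values were steadier than those of *Ifng* and *Tbx21*, and the groups overlapped only because ST2fl/fl library 3 lay just above ST2WT library 4. In each of the 4 recipients the ST2fl/fl cells held less, at 0.819, 0.639, 0.866 and 0.879 of the ST2WT value (TPM + 1). The means were 132 ± 10.9 TPM in ST2fl/fl cells and 167 ± 21.0 TPM in ST2WT cells (SD, n = 4 each). The log2 fold change was -0.33 (SE 0.10, 95% interval -0.56 to -0.10). That interval excludes 0, but over all genes the adjusted p was 0.203 from limma, and the exact permutation p was 0.0571.

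**Figure D1:**
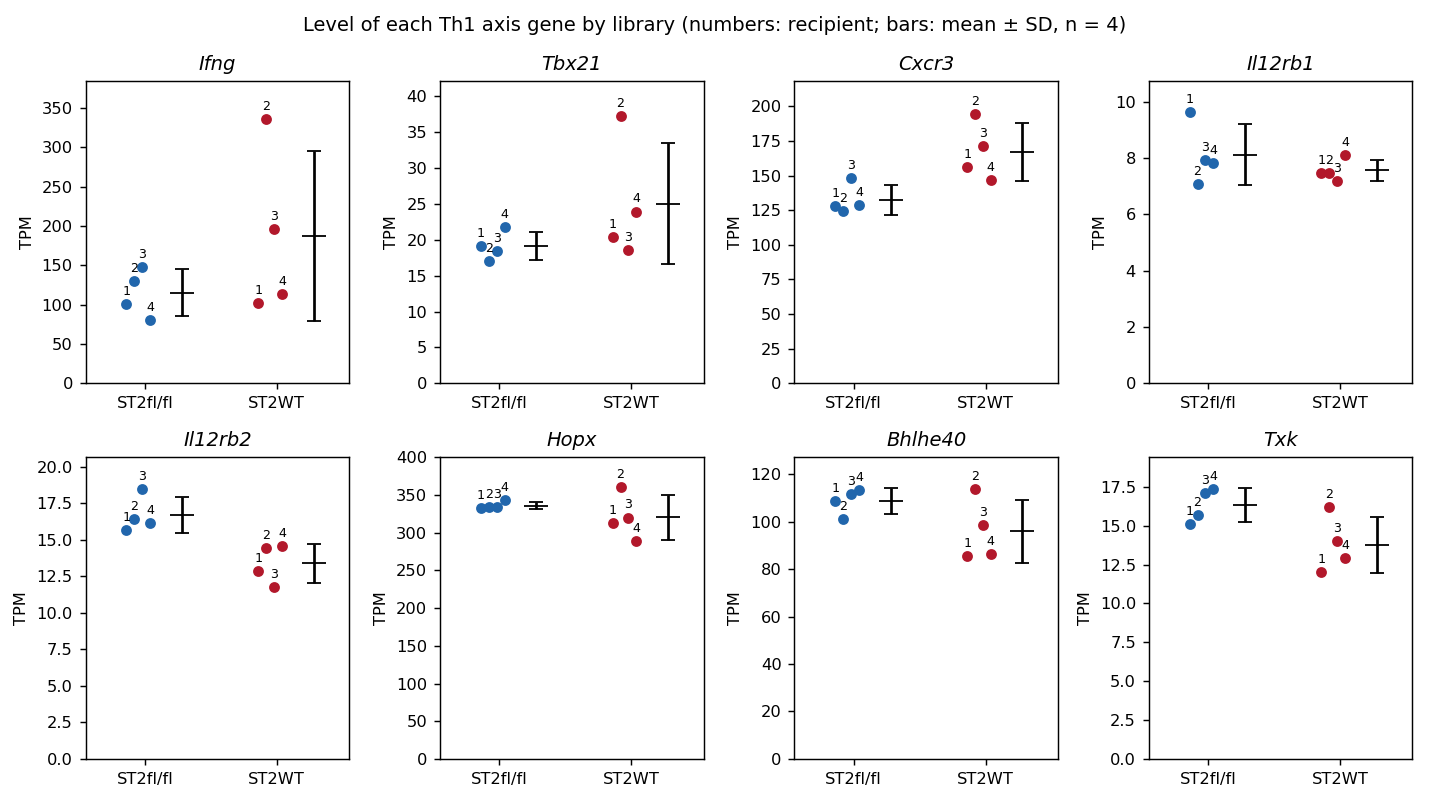
Level of each of the 8 Th1 axis genes in TPM (vertical axes from 0), ST2fl/fl libraries left and ST2WT libraries right, with the recipient's number at each point and the mean ± SD of 4 libraries beside the points. The ST2WT library of recipient 2 is the highest of all 8 for *Ifng* (337 TPM), *Tbx21* (37.3 TPM), *Cxcr3* (195 TPM), *Hopx* (361 TPM) and *Bhlhe40* (114 TPM), and only the *Il12rb2* groups do not overlap.

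The receptor chains for IL-12 lay on the other side. *Il12rb2* lies on chromosome 6 from 67291318 to 67376188. The ST2fl/fl libraries held 15.6, 16.4, 18.5 and 16.1 TPM of this signaling chain, against 12.8, 14.4, 11.8 and 14.5 TPM in the ST2WT libraries. Every ST2fl/fl library was above every ST2WT library, which held for 5.45% of all genes tested, while 4.58% had every ST2fl/fl library below every ST2WT library. With 16.7 ± 1.24 TPM in ST2fl/fl cells and 13.4 ± 1.34 TPM in ST2WT cells (SD, n = 4 each), the log2 fold change was 0.30 (SE 0.11, 95% interval 0.06 to 0.54). The exact permutation p, with the libraries taken as unpaired, was 0.0286, the smallest that 4 against 4 libraries allow. The adjusted p from limma was 0.274. Without both libraries of recipient 3, where the genotypes lay farthest apart, the log2 fold change was 0.19. Part of *Il12rb2* overlaps *Serbp1* on the other strand, and no source used here says whether counting used strand, so their reads cannot be told apart there. *Serbp1* had 48.5 to 52.3 TPM in ST2fl/fl and 49.5 to 52.2 TPM in ST2WT libraries.

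*Il12rb1*, on chromosome 8 from 70808449 to 70821424, had 9.62, 7.08, 7.93 and 7.81 TPM in ST2fl/fl libraries, against 7.45, 7.46, 7.19 and 8.10 TPM in ST2WT libraries. The chain shared with the IL-23 receptor was higher in ST2fl/fl cells in only 2 of 4 recipients, and ST2fl/fl library 1 alone carried the higher mean. The log2 fold change was 0.09 (SE 0.12, 95% interval -0.17 to 0.34, adjusted p = 0.750 from limma, exact permutation p = 0.429), and 0.01 without that library.

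*Hopx*, on chromosome 5 from 77086988 to 77115121, had 333, 334, 334 and 343 TPM in ST2fl/fl libraries, against 313, 361, 320.2 and 289 TPM in ST2WT libraries. Its ST2fl/fl libraries agreed closely and lay inside the range of the ST2WT libraries. Means were 336 ± 4.76 TPM in ST2fl/fl cells and 321 ± 29.9 TPM in ST2WT cells (SD, n = 4 each; log2 fold change 0.07, SE 0.08, 95% interval -0.10 to 0.24, adjusted p = 0.683 from limma). The antisense gene *Hopxos* had 5.28 to 6.18 TPM in ST2fl/fl and 4.81 to 6.81 TPM in ST2WT libraries.

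*Bhlhe40*, on chromosome 6 from 108660629 to 108666925, had 109, 101, 112 and 113 TPM in ST2fl/fl libraries, against 85.5, 114, 98.6 and 86.4 TPM in ST2WT libraries. ST2fl/fl cells held more of this repressor's transcript in recipients 1, 3 and 4, and less in recipient 2. The log2 fold change was 0.19 (SE 0.10, 95% interval -0.04 to 0.41, adjusted p = 0.438 from limma, exact permutation p = 0.171). Its antisense neighbor *0610040F04Rik* had 1.32 to 2.67 TPM in ST2fl/fl and 1.31 to 1.93 TPM in ST2WT libraries.

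*Txk*, the Tec family kinase, lies on chromosome 5 from 72695978 to 72752777. It had 15.1, 15.7, 17.1 and 17.3 TPM in ST2fl/fl libraries, against 12.0, 16.2, 14.0 and 12.9 TPM in ST2WT libraries. As with *Bhlhe40*, the ST2fl/fl value was the higher in 3 of 4 recipients, and recipient 2 went the other way. The log2 fold change was 0.23 (SE 0.12, 95% interval -0.02 to 0.49, adjusted p = 0.389 from limma, exact permutation p = 0.0857). The annotation also places *Gm43717*, a processed pseudogene, on the other strand of *Txk* and *Gm49751* on the same strand as *Ifng*, and the table lists neither.

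The threshold was that of the study, a fold change over 1.5 with p under 0.05 after Benjamini-Hochberg adjustment over all genes. Of the 8 Th1 axis genes 0 passed, beside 53 (0.518%) of the 10238 genes tested, 28 higher (0.273%) and 25 lower (0.244%) in ST2fl/fl cells. At an unadjusted p under 0.05 there were 2 of the 8, *Il12rb2* higher in ST2fl/fl cells, as were 7.11% of all genes, and *Cxcr3* lower, as were 6.80%. All 4 recipients had the same sign for *Ifng*, *Tbx21* and *Cxcr3* (lower in ST2fl/fl cells, as for 14.6% of all genes) and for *Il12rb2* (higher, as for 16.7%). The 8 log2 fold changes, 5 above and 3 below 0, had a median of 0.08, beside 0.01 over all genes. With the recipient as a block, 57 genes passed higher and 38 lower in ST2fl/fl cells, and again 0 of the 8. At an unadjusted p under 0.05 the block gave 3 of the 8, *Il12rb2* higher in ST2fl/fl cells, as were 9.94% of all genes, and *Ifng* and *Cxcr3* lower, as were 10.3%. The exact permutation p of each single gene treats the 8 libraries as independent and ignores the shared recipients. With 4 recipients an exact test on the pairs cannot give a p below 1 in 8. All p-values measure the spread between these libraries, which the labels number but do not tie to separate animals.

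**Figure D2:**
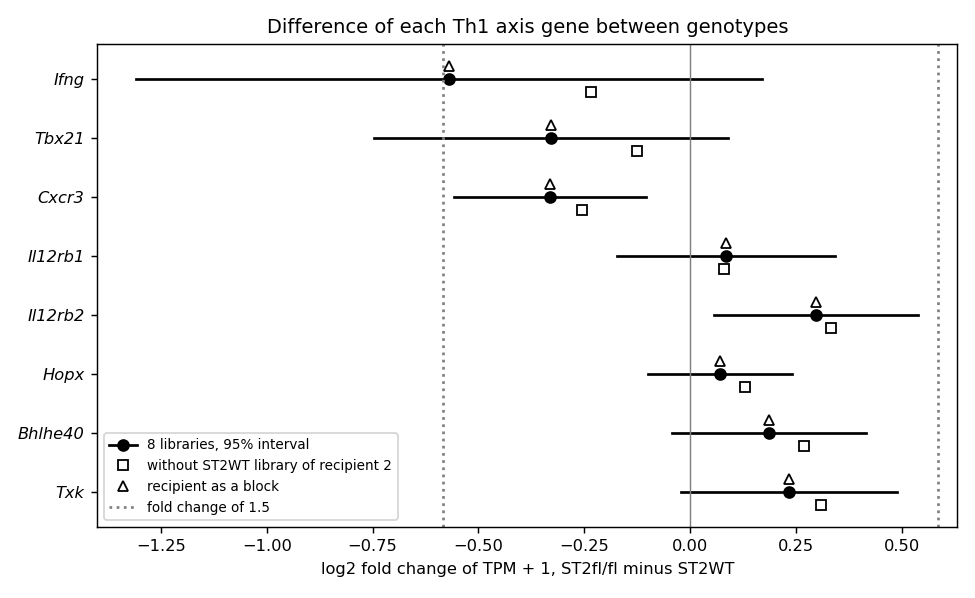
Log2 fold change of TPM + 1, ST2fl/fl minus ST2WT (horizontal axis), for each gene, with filled circles and 95% intervals from the limma fit of 8 libraries, squares for the fit without the ST2WT library of recipient 2 and triangles for the fit with the recipient as a block. *Ifng*, *Tbx21* and *Cxcr3* lie left of 0 and the other 5 right of it, and without that library *Ifng* moves to -0.23 and *Tbx21* to -0.13.

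The ST2WT library of recipient 2 set much of the size of these differences. Deviations of its genes from their means over the other ST2WT libraries had an SD of 0.465 on the log2 scale, against 0.243 to 0.270 in those libraries, taken likewise, and 0.242 to 0.279 in the ST2fl/fl libraries. Mitochondrially encoded genes took 9.18% of its TPM, against 12.7% to 13.8% in the other 7 libraries, and its 20 cell cycle genes lay 0.39 above their overall means on the log2 scale, against -0.03 to 0.13 in the other ST2WT and -0.23 to -0.06 in the ST2fl/fl libraries. Their part in the levels of the Th1 axis genes was not tested. When it was left out, *Ifng* came to -0.23 (adjusted p = 0.697 from limma) and *Tbx21* to -0.13 (adjusted p = 0.627) on the log2 scale. *Cxcr3* held up better at -0.26 (adjusted p = 0.142). On the other side, *Il12rb1* stayed at 0.08, and 4 genes lay farther from 0 than before, at 0.33 for *Il12rb2* (adjusted p = 0.132), 0.31 for *Txk* (adjusted p = 0.131), 0.27 for *Bhlhe40* (adjusted p = 0.0914) and 0.13 for *Hopx* (adjusted p = 0.225). Each of the 8 genes kept its direction under all 23 alternatives, and 0 passed in any of them.

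Covariation was measured as Pearson's r of log2(TPM + 1) over the 8 libraries, for all 28 pairs of the 8 genes. These libraries come from 4 recipients and 2 genotypes, and all pairs use the same libraries, so each r is a description and its exact permutation p treats the libraries as independent. After adjustment over the 28 pairs, 2 pairs passed by Pearson's r and 3 by Spearman's rho. *Bhlhe40* and *Txk* gave the highest value (r = 0.94, exact permutation p = 0.00122, adjusted 0.0170; rho = 0.90, adjusted p = 0.0426). *Hopx* and *Bhlhe40* followed (r = 0.88, exact permutation p = 0.000744, adjusted 0.0170; rho = 0.95, adjusted p = 0.0319). *Hopx* and *Txk* passed by rho alone (r = 0.78, exact permutation p = 0.0188, adjusted 0.132; rho = 0.90, adjusted p = 0.0426). Without the 2 libraries farthest from the median of the first gene of each pair, r was 0.80 for *Bhlhe40* and *Txk*, 0.92 for *Hopx* and *Bhlhe40* and 0.95 for *Hopx* and *Txk*. With any single library left out, r stayed at 0.76 or above for these 3 pairs. On deviations from the genotype means, r was 0.92 for *Bhlhe40* and *Txk*, 0.87 for *Hopx* and *Bhlhe40* and 0.77 for *Hopx* and *Txk*. Within genotypes and without the ST2WT library of recipient 2, r was 0.78, 0.56 and 0.31 for these 3 pairs, so that *Bhlhe40* and *Txk* depended on it least.

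Among *Ifng*, *Tbx21* and *Cxcr3* 0 of 3 pairs passed after adjustment. *Ifng* and *Cxcr3* had r = 0.83 (exact permutation p = 0.00933, adjusted 0.0870; rho = 0.64, exact p = 0.0962). Without ST2WT libraries 2 and 3, the farthest from the median, r was 0.23, and without ST2WT library 2 alone it was 0.62. On deviations from the genotype means r was 0.85 for *Ifng* and *Cxcr3*, and 0.67 without ST2WT library 2, a smaller drop than for *Hopx* and *Bhlhe40* or *Hopx* and *Txk*. Without both libraries of recipient 2, r of the values themselves, with the genotype difference left in, was 0.80. *Ifng* and *Tbx21* had r = 0.60 (exact permutation p = 0.134, adjusted 0.507), but a rho of -0.07 (exact p = 0.882). Without ST2WT library 2 their r was -0.53, so that the positive sign of the cytokine and its master factor came from 1 library. Their deviations from the genotype means gave r = 0.47, and -0.76 without that library. *Tbx21* and *Cxcr3* had r = 0.67 (exact permutation p = 0.0586, adjusted 0.274; rho = 0.43), and r = 0.10 without the same library. For this pair the deviations from the genotype means gave r = 0.51, and -0.44 without that library. Between these 3 genes and the other 5, 7 of 15 values of r were positive and 8 negative, with a median of -0.04. Without ST2WT library 2, 14 of the 15 were negative, from -0.68 to 0.24 with a median of -0.37. On deviations from the genotype means, 13 of 15 were positive over the 8 libraries (median 0.71), and 9 of 15 without the same library (median 0.23). Among the other 5 genes, 9 of 10 values were positive, and 10 of 10 without that library (median 0.56). On deviations from the genotype means, 7 of these 10 were positive (median 0.09), and 6 of 10 without the same library (median 0.05). Within genotypes the 5 genes thus did not covary as a group.

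**Figure D3:**
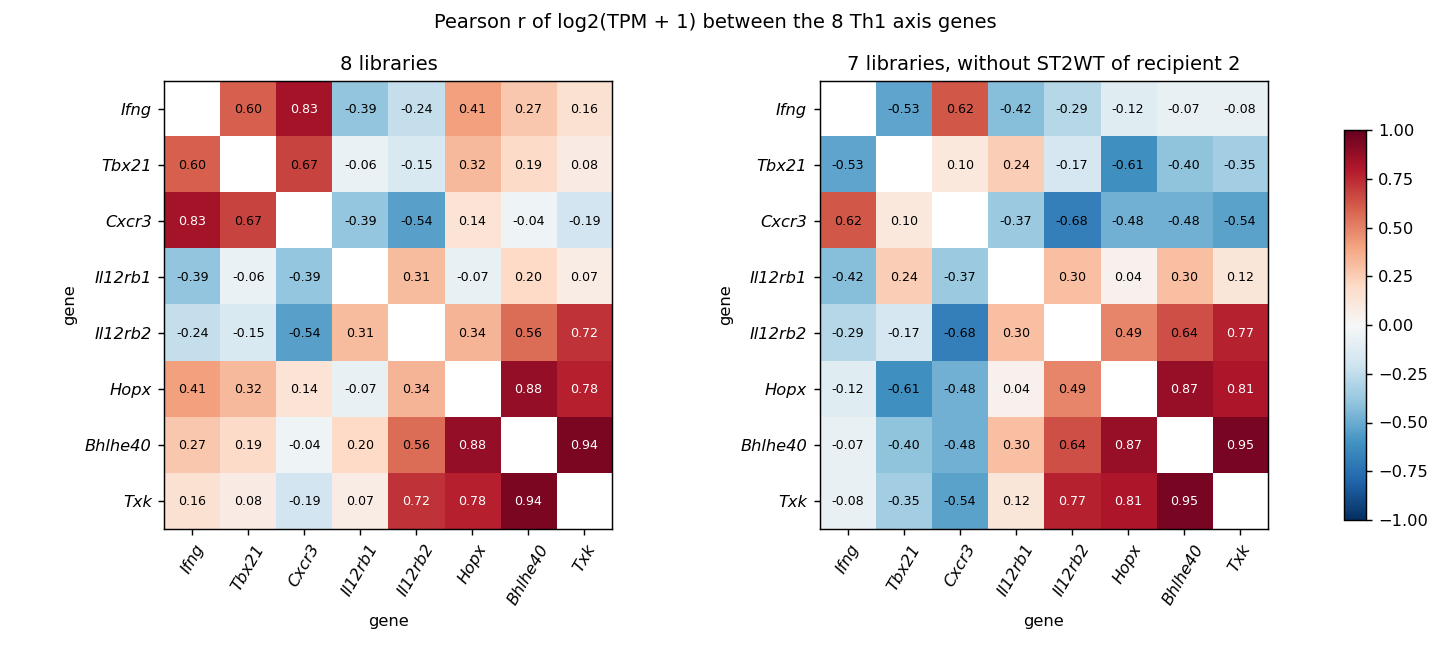
Pearson's r of log2(TPM + 1) between each pair of the 8 genes, over 8 libraries (left) and over the 7 libraries without ST2WT of recipient 2 (right), with red for positive and blue for negative values on a scale of -1 to 1. *Bhlhe40* with *Txk* (0.94 and 0.95) and *Hopx* with *Bhlhe40* (0.88 and 0.87) hardly move between the panels, while *Ifng* with *Tbx21* goes to -0.53 on the right, against 0.60 on the left.

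**Figure D4:**
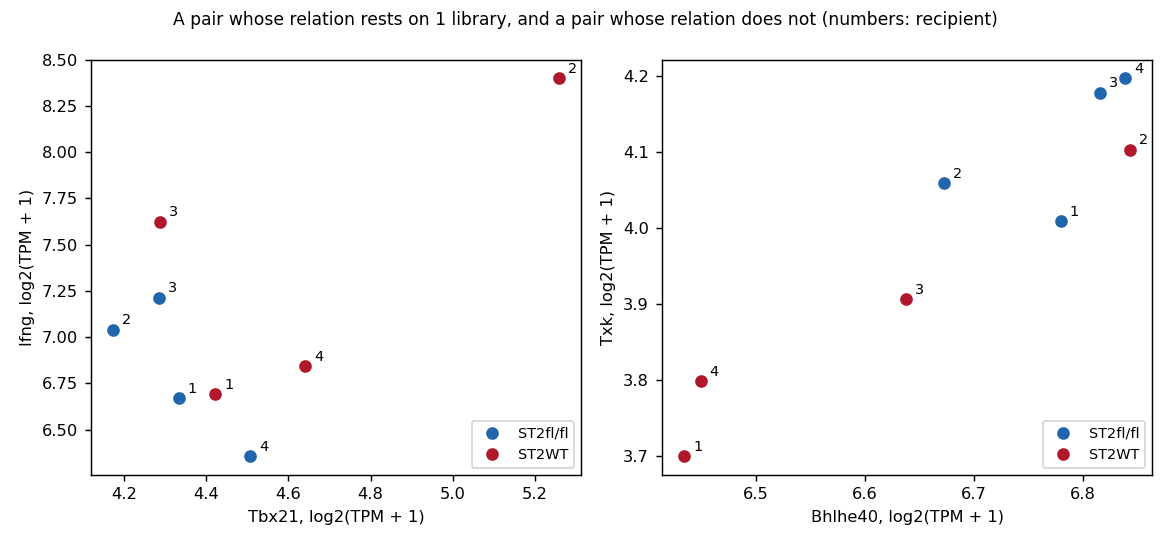
*Ifng* against *Tbx21* (left) and *Txk* against *Bhlhe40* (right), as log2(TPM + 1) on both axes, 1 point for each library with its recipient's number, ST2fl/fl in blue and ST2WT in red. The ST2WT library of recipient 2 lies alone at the upper right of the left panel, and the *Bhlhe40* and *Txk* points (r = 0.94) spread along a line with 3 of 4 ST2WT libraries at its lower end.

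Ratios of TPM within a library compare these genes without any scaling between libraries. They were chosen after the values were seen and carry no test. *Cxcr3* over *Il12rb2* was 8.17, 7.56, 8.03 and 7.99 in ST2fl/fl libraries, against 12.2, 13.5, 14.6 and 10.1 in ST2WT libraries. The ST2fl/fl values lay close together and below all ST2WT values, so the balance between the chemokine receptor and the IL-12 signaling chain differed in every recipient. *Tbx21* over *Il12rb2* was 1.23, 1.04, 1.0 and 1.35 in ST2fl/fl libraries, against 1.59, 2.58, 1.58 and 1.65 in ST2WT libraries. *Tbx21* over *Txk* was 1.27, 1.09, 1.08 and 1.25 in ST2fl/fl libraries, against 1.70, 2.30, 1.32 and 1.85 in ST2WT libraries. Both ratios separated the genotypes, and did so without ST2WT library 2. *Cxcr3* and *Tbx21* had lower means in ST2fl/fl cells and *Il12rb2* and *Txk* higher ones, so lower ratios there follow from the single genes. The share of other gene pairs that separate likewise was not counted. *Ifng* over *Hopx*, at 0.303, 0.391, 0.441 and 0.236 in ST2fl/fl libraries and 0.326, 0.933, 0.613 and 0.394 in ST2WT libraries, overlapped between them. The chains of the IL-12 receptor, *Il12rb2* over *Il12rb1*, stood at 1.62, 2.32, 2.33 and 2.07 in ST2fl/fl libraries and at 1.72, 1.93, 1.64 and 1.79 in ST2WT libraries. Here 3 of 4 ST2fl/fl libraries were above every ST2WT library and ST2fl/fl library 1 was below them all.

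Among genes that averaged 5 TPM or more, the profiles most like those of *Ifng*, *Tbx21* and *Cxcr3* over the 8 libraries were none of the listed Th1 genes. *Ifng* was followed most closely by *Nfyb* (r = 0.98), a subunit of the CCAAT-binding factor NF-Y, then by *Hat1*, a histone acetyltransferase, *Uqcrc2*, of respiratory complex III, *Hprt*, of purine salvage, and *Mettl5* (0.96 each). *Tbx21* was followed by *Gatsl3*, *Acadvl*, of fatty acid oxidation, and *Sap30*, of a histone deacetylase complex (0.99 each), and by *Atp5d*, of ATP synthase, and *Ints9* (0.98 each). Among the closest to *Cxcr3* were *Tcf19* (0.97), *Dnaaf2*, *Ap3m1* and *Csrp1* (0.96 each). *Csrp1* was the only one of these genes that passed the threshold (log2 fold change -1.24, adjusted p = 0.0422 from limma). A high r was common here, and r exceeded 0.9 for 1.41% of genes with *Ifng*, 2.30% with *Tbx21* and 0.837% with *Cxcr3*. The other 5 genes had fewer close neighbors, from 0.0139% of genes with *Il12rb1* to 0.404% with *Hopx*. *Txk* was nearest to *Cd38*, *Tmem50a* (0.97 each) and *Cd3e* (0.94), which encodes a chain of the CD3 complex. *Bhlhe40* was nearest to *Atp1b3*, *Ngly1* (0.97 each) and *Ifngr1* (0.96), which encodes the ligand-binding chain of the IFN-γ receptor. *Il12rb2* was nearest to *Sdf4* (0.97), *Klhl28* and *Traj34* (0.96 each), *Hopx* to *Fopnl* (0.99), *Mat2b* (0.97) and *Sfxn3* (0.95), and *Il12rb1* to *Slc2a4rg-ps* (0.93), *Pxmp4* and *Cln6* (0.89 each).

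Around the 8 genes, lists of related genes were counted in the same fit, beside 0.273% of all genes higher and 0.244% lower in ST2fl/fl cells. Of all genes tested, 51.7% had log2 fold changes above 0 and 48.3% below, and an unadjusted p under 0.05 was reached by 7.11% above 0 and 6.80% below. Of 25 Th1 effector and Tbet target genes, which include *Ifng*, *Cxcr3* and *Il12rb2*, 3 passed, all higher in ST2fl/fl cells, and the chemokine genes *Ccl4* and *Ccl5* were among them. *Ccl4* had 378, 163, 557 and 366 TPM in ST2fl/fl libraries, against 45.3, 38.3, 16.4 and 62.1 TPM in ST2WT libraries (adjusted p = 0.00601 from limma; log2 fold change 3.16, SE 0.41). *Ccl5* had 100.2 ± 45.4 TPM in ST2fl/fl cells and 26.3 ± 5.82 TPM in ST2WT cells (SD, n = 4 each; log2 fold change 1.79, SE 0.30, adjusted p = 0.0257). Both chemokine genes were higher in ST2fl/fl cells, in the list in which *Ifng* and *Cxcr3* were among 7 genes with log2 fold changes below 0. At an unadjusted p under 0.05 from limma, 10 of the 25 were higher in ST2fl/fl cells, *Il10* among them, and 3 lower, *Cxcr3* and *Gzmb* among them. *Gzmb* had 756 TPM in ST2fl/fl cells and 1099 TPM in ST2WT cells (log2 fold change -0.54, adjusted p = 0.106 from limma). *Il10*, of the regulatory cytokine that *Bhlhe40* restrains, had 21.3 TPM in ST2fl/fl cells and 8.88 TPM in ST2WT cells (log2 fold change 1.09, adjusted p = 0.0835). The list's median was 0.21, with 18 of 25 genes above 0. The count depended on single libraries, since 1 gene passed without ST2fl/fl library 1, 3 or 4, 0 without both libraries of recipient 1, 1 without both of recipient 3, 6 without both of recipient 2 and 5 with the recipient as a block.

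Upstream of Tbet, 0 of 13 receptor and signal transducer genes passed, with 12 above 0, 3 of them at an unadjusted p under 0.05 from limma, and a median of 0.22. *Socs3*, an inhibitor of cytokine signaling, had 8.38 TPM in ST2fl/fl cells and 5.84 TPM in ST2WT cells (log2 fold change 0.45, adjusted p = 0.121 from limma). *Jak2*, a kinase of the IL-12 and IFN-γ receptors, had 61.7 TPM in ST2fl/fl cells and 47.3 TPM in ST2WT cells (0.41, adjusted p = 0.295), and *Ifngr1* 379 TPM in ST2fl/fl cells and 320 TPM in ST2WT cells (0.26, adjusted p = 0.372). ST2WT library 2 held 31.2 TPM of *Jak2*, against 51.0 to 54.0 TPM in the other ST2WT libraries. It held 417 TPM of *Ifngr1*, against 281 to 299 TPM in those libraries. *Stat4*, which carries the IL-12 signal to *Tbx21* and *Ifng*, stood at 165 TPM in both genotypes (0.00, SE 0.10).

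Among 17 transcription factors that act with or against Tbet, 0 passed and 14 were above 0 (median 0.10), and before adjustment 4 were at p under 0.05, 3 of them above 0. *Batf*, an AP-1 factor, had 490.4 TPM in ST2fl/fl cells and 618 TPM in ST2WT cells (log2 fold change -0.33, adjusted p = 0.121 from limma). *Foxp3*, of regulatory T cells, had 10.2 TPM in ST2fl/fl cells and 6.18 TPM in ST2WT cells (0.67, adjusted p = 0.121). *Maf*, which favors *Il10*, had 79.0 TPM in ST2fl/fl cells and 64.1 TPM in ST2WT cells (0.31, adjusted p = 0.252). Downstream of IFN-γ, 0 of 20 response genes passed and 15 were above 0 (median 0.14). At an unadjusted p under 0.05 from limma, 4 of them were higher, and 7 with the recipient as a block. The log2 fold change of *Ifng* itself was -0.57, with a 95% interval of -1.31 to 0.17. Cells of both genotypes shared each recipient's spleen, and a link between their own *Ifng* and these genes was not tested. *Gbp4*, an interferon-induced GTPase, had 42.2 TPM in ST2fl/fl cells and 31.5 TPM in ST2WT cells (0.42, adjusted p = 0.110). The GTPase genes *Iigp1* (27.3 TPM in ST2fl/fl cells and 16.2 TPM in ST2WT cells, adjusted p = 0.247) and *Irgm2* (24.7 TPM in ST2fl/fl cells and 20.0 TPM in ST2WT cells, adjusted p = 0.256) were also above 0.

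Of 10 Tec kinases and partners of *Txk* in T cell receptor signaling, 0 passed and 8 were above 0 (median 0.10), 3 of them at an unadjusted p under 0.05. *Plcg1*, the phospholipase that Tec kinases activate, had 8.28 TPM in ST2fl/fl cells and 5.69 TPM in ST2WT cells (log2 fold change 0.49, adjusted p = 0.202 from limma). *Zap70*, *Fyn* and *Lcp2*, of the same proximal pathway, had log2 fold changes of 0.21, 0.38 and 0.12 with adjusted p of 0.296, 0.317 and 0.492. ST2WT library 2 held the least *Plcg1* of its genotype, 3.86 TPM against 5.99 to 6.53 TPM. It also held the least *Fyn*, 38.2 TPM against 61.2 to 65.7 TPM, but the most *Lcp2*, 149.6 TPM against 128 to 141 TPM. All 20 cell cycle genes lay below 0 (median -0.29), with 0 past the threshold and 11 at an unadjusted p under 0.05. *Plk1* had 72.0 TPM in ST2fl/fl cells and 93.7 TPM in ST2WT cells, *Cdc6* 10.3 TPM in ST2fl/fl cells and 16.4 TPM in ST2WT cells, *Mcm3* 58.4 TPM in ST2fl/fl cells and 76.3 TPM in ST2WT cells, and *Rrm2* 367 TPM in ST2fl/fl cells and 503 TPM in ST2WT cells (adjusted p 0.140 to 0.229).

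**Figure D5:**
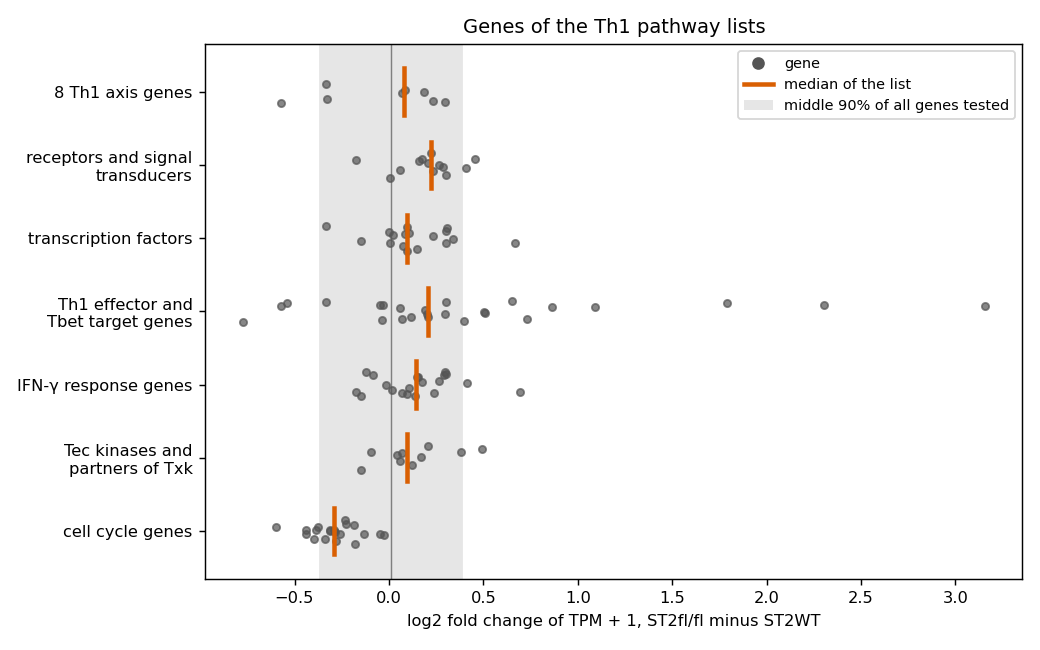
Log2 fold change of TPM + 1, ST2fl/fl minus ST2WT (horizontal axis), for each gene (points) of the 8 Th1 axis genes and of the related lists, with an orange bar at each list's median, a thin line at the median of all genes and gray shading over their middle 90% (-0.36 to 0.39). The medians run from -0.29 for cell cycle genes to 0.22 for receptors and signal transducers, and the rightmost point is *Ccl4* at 3.16.

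The sorted populations carried T cell markers. These were *Cd3d*, *Cd3e*, *Cd3g*, *Cd4*, *Cd5*, *Cd28* and *Trac*. The 7 summed to 7839 to 7997 TPM in ST2fl/fl libraries and to 6672 to 6899 TPM in ST2WT libraries, without overlap. *Cd4* itself had 166 to 197 TPM in ST2fl/fl libraries and 113 to 159 TPM in ST2WT libraries (adjusted p = 0.151 from limma). *Cd3g* had 2674 TPM in ST2fl/fl cells and 2133 TPM in ST2WT cells (log2 fold change 0.33, adjusted p = 0.0106 from limma), under the fold limit of 1.5. Genes taken as markers of other cells that can make IFN-γ were present too. All 4 genes of γδ T cells were listed, with sums of 61.5 to 108 TPM in ST2fl/fl libraries and 27.5 to 71.6 TPM in ST2WT libraries. Most of each sum was *Tcrg-C1* and *Tcrg-C2*. The δ chain gene *Trdc* had only 0.690 to 2.16 TPM in ST2fl/fl libraries and 0.332 to 1.30 TPM in ST2WT libraries, so the sums alone do not establish γδ T cells. *Tcrg-C2* passed higher in ST2fl/fl cells with the recipient as a block (log2 fold change 1.16, adjusted p = 0.0201 from limma, against 0.106 without the block). Of 9 NK cell and ILC1 markers 6 were listed, with sums of 104 to 187 TPM in ST2fl/fl libraries and 155 to 249 TPM in ST2WT libraries, and *Ncr1* was not among them. Most of this sum was *Klrd1*, the gene of CD94, which NK cells and also some activated T cells carry, with 133, 60.8, 88.5 and 105 TPM in ST2fl/fl libraries, against 198, 120, 192 and 201 TPM in ST2WT libraries. Its ST2fl/fl value was the lower in all 4 recipients (adjusted p = 0.134 from limma; log2 fold change -0.89, SE 0.23), and with the recipient as a block it passed the threshold (adjusted p = 0.0100). Of the other 5 listed NK cell and ILC1 markers, *Klrk1*, *Tyrobp* and *Fcer1g* had higher means in ST2fl/fl cells and *Klrb1c* and *Klre1* lower ones, and 0 passed in either fit. *Cd8b1* stood at 10.5 to 14.2 TPM in ST2fl/fl libraries and 12.4 to 13.5 TPM in ST2WT libraries. Of 8 B cell markers 4 were listed (192 to 263 TPM in ST2fl/fl libraries and 283 to 294 TPM in ST2WT libraries), without *Cd79a* and *Ms4a1*. Of 10 myeloid markers 4 were listed, at sums of 16.9 to 30.7 TPM in ST2fl/fl libraries and 18.2 to 33.5 TPM in ST2WT libraries, and of 6 erythroid and stromal markers 1. Their part in the levels of *Ifng*, *Ccl4* or any other gene here was not tested. In such sorted bulk samples, fewer cells of a type and less RNA per cell cannot be told apart. *Il1rl1*, which encodes ST2, had 14.9 to 17.7 TPM in ST2fl/fl libraries and 14.6 to 21.3 TPM in ST2WT libraries, and whole-gene TPM that can include exons outside the deleted part check no label.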

How the data were processed

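RNA-Seq was performed by the authors on donor CD4+ T cells sorted from spleens on d5 into SmartSeq low-input lysis buffer, with Nextera XT libraries sequenced on a NextSeq500. The authors aligned reads to GRCm38.p6 in CLC Genomics Workbench 20.0.3 and deposited TPM values, made for each library separately (sums 999334 to 999527). The authors' own comparison used TMM and edgeR on read counts, not used here. Every listed gene is above 0 in each of the 8 libraries. Read totals cannot be had from TPM, which leaves the depth unknown and allows no counting intervals.

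The 10238 genes that averaged 1 TPM or more were kept and 2179 were not. Their log2(TPM + 1) values were fitted with limma 3.58.1 (R 4.3.3), with a variance trend and no covariate. Fold changes are on that scale, which understates changes of low genes, and are ST2fl/fl minus ST2WT. Single values were compared over all 70 labelings of 4 against 4, which ignore the pairing by recipient. Correlations used scipy 1.17.1 with all orders of the 8 libraries, and figures matplotlib 3.10.9. The 8 genes, the gene lists and the tests were chosen with earlier results of these data known. The genes named are the 8, list genes past the threshold, up to 4 list genes with the smallest p, and the 5 or 3 genes of highest r with each. *Stat4*, *Cd3g* and *Gzmb* were named after their values were seen. Results of some single genes that the rule would name are left out here. *Eomes*, on 2 lines of the table, was left out. Coordinates are from GENCODE M21 on GRCm38 and promoters from RefSeq. Alternatives were other pseudocounts, filters, scalings and variance models, array weights, the recipient as a block, and leaving out libraries or recipients.

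The labels number the libraries but name no recipient, and the numbers were taken as recipients because the study sorted both genotypes from the same spleens. Deviations from the genotype means correlated within each number (r = 0.195, 0.352, 0.118 and 0.163 for numbers 1 to 4), against -0.283 to 0.109 for different numbers. The labels give no batch.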

Additional observations from a re-analysis of the deposited data

Results flagged for a closer look

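Of 30 sets of 4 values examined, 4 had a value far from the others by Dixon's test at 95%, where chance gives about 1 in 20. The ratio of *Tbx21* (TPM + 1), ST2fl/fl over ST2WT, was 0.471 in recipient 2, and the gap to the next recipient was 0.835 of the whole range. The SD of the deviations of all genes from their means over the other libraries of the genotype was 0.465 in the ST2WT library of recipient 2 (gap 0.876 of the range), the same library that held the highest *Ifng* and *Tbx21*. The SD of deviations was also highest in the ST2fl/fl library of recipient 2, at 0.279 (gap 0.830 of the range). *Hopx* had 343 TPM in the ST2fl/fl library of recipient 4, above the other ST2fl/fl libraries by 0.851 of a narrow range.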

How the results depend on the processing

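Each of the 8 genes kept its direction and stayed short of the threshold under all 23 alternatives, with the recipient as a block among them (*Ifng* -0.57, SE 0.19, adjusted p = 0.161; *Cxcr3* adjusted p = 0.119; *Il12rb2* adjusted p = 0.201). With the block, *Ifng* came to an unadjusted p of 0.0163 (0.118 without it), which makes 3 of the 8 under 0.05 in place of 2, and IFN-γ response genes higher at that limit numbered 7 in place of 4. *Klrd1* and *Tcrg-C2* passed the threshold with the block alone, and *Batf* (0.0405) and *Rrm2* (0.0473) came to an adjusted p under 0.05 at a fold change under 1.5. The log2 fold change ranged over the alternatives from -0.80 to -0.23 for *Ifng* (adjusted p 0.123 to 0.700), -0.45 to -0.08 for *Tbx21* (0.338 to 0.757), -0.39 to -0.23 for *Cxcr3* (0.0518 to 0.583), 0.19 to 0.35 for *Il12rb2* (0.0837 to 0.626), 0.12 to 0.31 for *Bhlhe40* (0.0478 to 0.739), 0.18 to 0.33 for *Txk* (0.0779 to 0.675), 0.01 to 0.14 for *Hopx* and 0.00 to 0.14 for *Il12rb1*. The adjusted p of 0.0478 for *Bhlhe40* came with the block and without recipient 2, chosen after seeing the data, at a fold change under 1.5. Genes past the threshold numbered 28 higher and 25 lower in ST2fl/fl cells, 13 lower at a pseudocount of 5, 15 lower at a filter of 5 TPM, 74 higher and 56 lower with array weights, 57 and 38 with the replicate block, and 75 and 42 with the block and without recipient 2. Leaving out libraries gave 4 to 65 higher and 5 to 46 lower. The Th1 effector list had 3 genes higher, against 0 to 6 when libraries were left out, and 6 with array weights. Without ST2WT library 2, r was -0.53 for *Ifng* and *Tbx21* and 0.62 (exact p = 0.138) for *Ifng* and *Cxcr3*, and without ST2WT library 3 it was 0.84 (exact p = 0.0315) for *Tbx21* and *Cxcr3*. Over single libraries left out, r ranged from -0.53 to 0.73, from 0.62 to 0.91 and from 0.10 to 0.84 for these pairs, and from 0.84 to 0.93 for *Hopx* and *Bhlhe40*, 0.91 to 0.96 for *Bhlhe40* and *Txk* and 0.76 to 0.83 for *Hopx* and *Txk*. The cause of these shifts was not tested. With 4 libraries a genotype and no read totals, small differences of low genes such as *Il12rb1* cannot be resolved.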
